A study of Mus musculus with 11 samples.

Results

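Levels of 9 peptide hormone receptor genes were read in single cells of the mouse stellate ganglion, a sympathetic ganglion low in the neck whose neurons supply heart, forelimb and brown fat. The genes were Agtr1a, Sctr, Rxfp1, Adcyap1r1, Oprk1, Oprm1, Npy1r, Npy2r and Sstr2, all present among the 19444 genes of the expression table. They were chosen by name with results of these data in view, for levels that differ between cell clusters, and the clusters had been built from the same expression values. Levels in the clusters and differences between them are therefore given as a description, with no test. The only tests are between sets of mice within a cluster, which did not enter the choice.

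The cells came from 6 male C57BL/6J mice aged 6 to 8 weeks, each injected with a pair of retrograde tracers, CTB-555 into interscapular brown fat (iBAT) and CTB-488 into a forelimb, 3 days ahead of harvest. No mouse without tracer was analysed here, and no cell could be tied to its tracer. Set 1, Set 2 and Set 3 each pooled the ganglia of 2 mice, and cells were sorted into 96-well plates, 11 plates in all. The set is the replicate for a cluster (n = 3), and plates of a set share its mice.

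The authors placed 878 cells in 4 numbered clusters, without cell type names. Cluster 4 held 54 cells (12, 24 and 18 in Sets 1, 2 and 3), cluster 1 held 388 (156, 140 and 92) and cluster 2 held 335 (137, 112 and 86). Cluster 3 mixed 47 cells with at least 52105 counts and 54 cells with at most 18608, which are given apart as its high-count and low-count parts. Median counts per cell were 35488.5 in cluster 4, 28396 in cluster 1, 40121 in cluster 2, 68061 in the high-count and 2683.5 in the low-count part of cluster 3. The summed level of the cholinergic markers Chat, Slc18a3, Slc5a7 and Vip was 58.2 to 64.6 counts per 10000 over the sets of cluster 4, 0.166 to 0.391 in cluster 1 and 0.184 to 0.354 in cluster 2. That of the noradrenergic markers Th, Dbh, Slc6a2 and Slc18a2 was 28.3 to 42.3 in cluster 4, 87.0 to 101.9 in cluster 1 and 108.8 to 126.0 in cluster 2. The summed level of 8 glial markers was 11.5 to 19.3 in cluster 4, 7.34 to 8.81 in cluster 1 and 8.36 to 10.9 in cluster 2, so glial transcripts were counted in all 3 clusters. Leaving out the 78 cells of these clusters richest in them turned the sign of 0 receptor differences between clusters.

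All 9 genes encode G protein-coupled receptors. Sctr (secretin), Rxfp1 (relaxin) and Adcyap1r1 (pituitary adenylate cyclase-activating polypeptide, PACAP) are receptors that mainly raise cyclic AMP, and Agtr1a (angiotensin II) mainly acts through the Gq pathway. The opioid receptors Oprk1 (kappa) and Oprm1 (mu), the neuropeptide Y receptors Npy1r and Npy2r and the somatostatin receptor Sstr2 mainly act through Gi and Go proteins, which lower cyclic AMP and, at nerve endings, can hold back transmitter release. Angiotensin II and PACAP are known to excite sympathetic neurons, and neuropeptide Y is a co-transmitter of noradrenaline.

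Promoter sequence was at hand for 5 of the 9 genes, and 3 are printed to set 3 patterns side by side: Sstr2, highest in cluster 4; Npy1r, low in cluster 4; and Adcyap1r1, present in every cluster. Each runs from 250 bases before to 50 bases after the RefSeq gene start on the plus strand of GRCm38.p6, at chr11:113619077-113619376 for Sstr2, chr8:66697172-66697471 for Npy1r and chr6:55451728-55452027 for Adcyap1r1. Capitals mark the cyclic AMP response element TGACGTCA, which reads alike on both strands.
Sstr2: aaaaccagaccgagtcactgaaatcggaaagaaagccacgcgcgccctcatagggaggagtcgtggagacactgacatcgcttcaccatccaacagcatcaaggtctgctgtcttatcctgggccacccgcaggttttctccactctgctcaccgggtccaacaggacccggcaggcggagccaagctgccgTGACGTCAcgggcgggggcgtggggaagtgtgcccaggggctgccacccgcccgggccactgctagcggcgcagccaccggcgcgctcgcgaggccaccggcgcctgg
Npy1r: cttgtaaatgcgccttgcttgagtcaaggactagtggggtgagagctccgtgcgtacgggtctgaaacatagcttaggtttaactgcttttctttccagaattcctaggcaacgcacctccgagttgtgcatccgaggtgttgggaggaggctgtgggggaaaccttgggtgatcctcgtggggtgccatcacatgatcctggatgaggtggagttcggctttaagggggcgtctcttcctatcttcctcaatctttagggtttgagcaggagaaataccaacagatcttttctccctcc
Adcyap1r1: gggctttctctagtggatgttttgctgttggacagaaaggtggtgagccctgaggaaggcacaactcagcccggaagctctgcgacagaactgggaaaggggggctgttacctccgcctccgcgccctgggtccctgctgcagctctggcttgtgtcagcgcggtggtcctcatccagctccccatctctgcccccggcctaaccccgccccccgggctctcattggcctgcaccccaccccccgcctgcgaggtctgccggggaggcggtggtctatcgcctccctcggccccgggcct
TGACGTCA occurred 1 time in the Sstr2 window, starting 58 bases before the gene start, and in neither of the other two windows; 1.79% of 32851 promoters of this length hold it. CAGCTG (in 16.3% of promoters), AGATAA (11.2%) and TAATTA (5.29%), searched on both strands, matched none of the 3 windows. The letters alone do not show that a factor binds there.

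Levels are means over cells of counts per 10000, written as the mean ± SD of 3 set means unless a value per set is given. The libraries read 3' ends, so a level is not scaled to gene length, and levels are compared between clusters, not between genes. To set depths equal, cells were also thinned to 15000 counts each, which kept 743 of 777 cells of clusters 1, 2 and 4. Shares of cells with a count are after thinning unless stated otherwise, with 95% Clopper-Pearson intervals that cover counting error only. Since cDNA of a plate was pooled before amplification, low levels are not read as expression. For scale, the cholinergic marker Vip stood at 54.1 in cluster 4, 0.215 in cluster 1 and 0.232 in cluster 2.

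**Figure D1:**
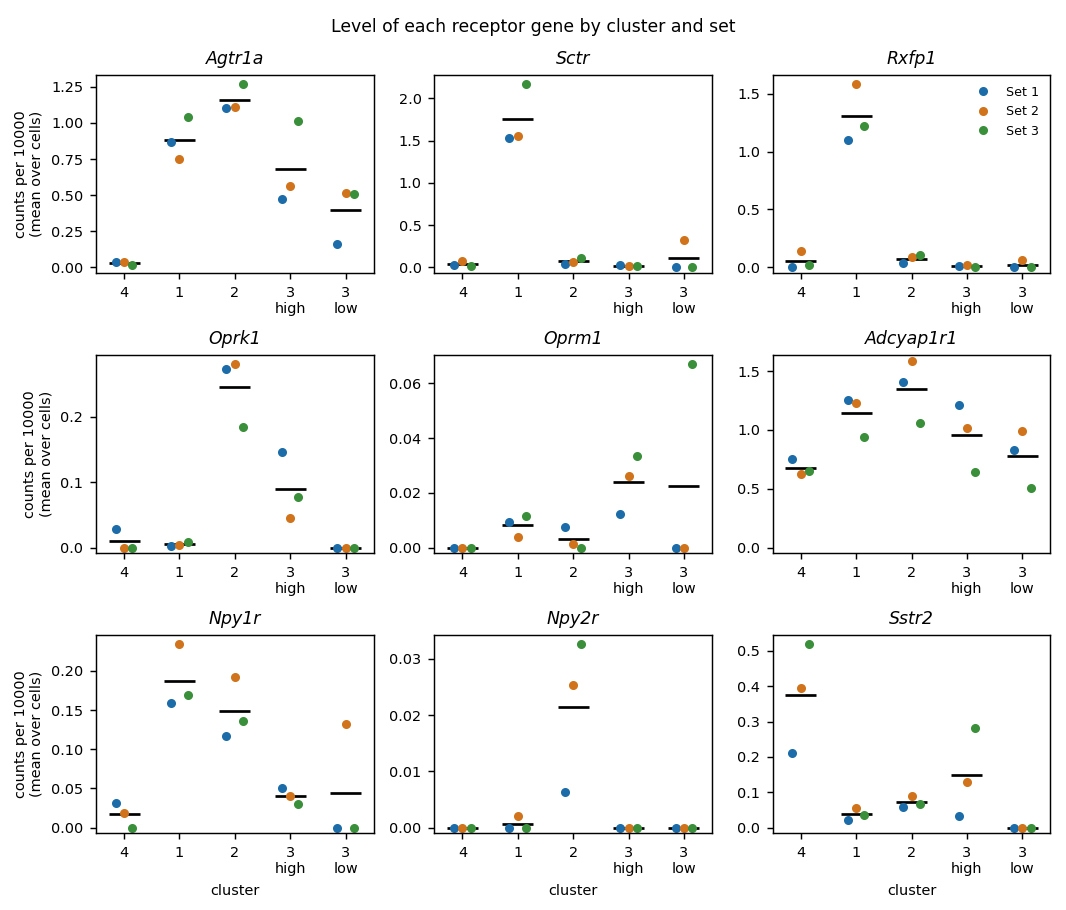
Mean level of each receptor gene (counts per 10000, vertical axes from about 0) in cluster 4, cluster 1, cluster 2 and the high-count and low-count parts of cluster 3; points are the 3 sets and lines their mean. Sctr and Rxfp1 stand out in cluster 1, Oprk1 and Npy2r in cluster 2 and Sstr2 in cluster 4, and Agtr1a and Npy1r are near 0 in cluster 4 only among clusters 4, 1 and 2.

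Agtr1a transcripts were spread over clusters 1 and 2 and nearly missing from cluster 4. Agtr1a (chromosome 13, 30336441 to 30382867, plus strand; this and the positions below from GENCODE M21 on GRCm38) had 0.0371, 0.0345 and 0.0138 counts per 10000 in Sets 1, 2 and 3 of cluster 4. It had 0.869, 0.748 and 1.04 in cluster 1, and 1.10, 1.11 and 1.27 in cluster 2. The 3 clusters did not overlap, in the order cluster 2, cluster 1, cluster 4, and the mean was 31.1-fold lower in cluster 4 than in cluster 1 and 40.8-fold lower than in cluster 2. Only 7 counts, each in a different cell, were seen in cluster 4, against 1002 in cluster 1 and 1567 in cluster 2. At equal depth Agtr1a was detected in 7.55% (2.09 to 18.2) of cluster 4 cells, 65.1% (60.0 to 70.0) of cluster 1 cells and 77.4% (72.4 to 81.8) of cluster 2 cells. The step between clusters 1 and 2 was small, a mean of 0.885 ± 0.146 in cluster 1 against 1.16 ± 0.0959 in cluster 2, yet cluster 1 was lower on 11 of 11 plates. In the high-count part of cluster 3, Agtr1a had 0.471, 0.561 and 1.01, which overlapped cluster 1.

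Sctr transcripts were found mainly in cluster 1. Sctr (chromosome 1, 120006894 to 120063536, plus strand) had 0.0279, 0.0765 and 0.0221 counts per 10000 in Sets 1, 2 and 3 of cluster 4, 1.53, 1.56 and 2.17 in cluster 1 and 0.0418, 0.0596 and 0.112 in cluster 2. Every set of cluster 1 lay above every set of clusters 4 and 2, and clusters 4 and 2 overlapped. The mean was 41.7-fold lower in cluster 4 than in cluster 1, and 24.7-fold higher in cluster 1 than in cluster 2. At equal depth 5.66% (1.18 to 15.7) of cluster 4 cells, 80.4% (75.9 to 84.3) of cluster 1 cells and 4.95% (2.86 to 7.92) of cluster 2 cells had a count. The high-count part of cluster 3 did not share it, with 0.0292, 0.0150 and 0.0216 and a count in 4.26% (0.520 to 14.5) of cells. The low-count part had 0, 0.324 and 0 from 3 counts in all, at a depth too low to read.

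Rxfp1 followed the same order. Rxfp1 (chromosome 3, 79641611 to 79737880, minus strand) had 0, 0.145 and 0.0221 counts per 10000 in Sets 1, 2 and 3 of cluster 4, 1.10, 1.59 and 1.22 in cluster 1 and 0.0380, 0.0859 and 0.107 in cluster 2. Cluster 1 again stood apart from clusters 4 and 2, which overlapped, with a mean 23.4-fold lower in cluster 4 than in cluster 1 and 16.9-fold higher in cluster 1 than in cluster 2. It was detected in 7.55% (2.09 to 18.2) of cluster 4 cells, 78.7% (74.2 to 82.8) of cluster 1 cells and 6.19% (3.82 to 9.40) of cluster 2 cells at equal depth. For Sctr and Rxfp1 alike, cluster 1 was higher than cluster 2 on 11 of 11 plates.

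Nearly every cluster 1 cell carried a secretin or a relaxin receptor transcript, and most carried both. Without thinning, 321 of 388 cells had counts of Sctr and Rxfp1, 21 of Sctr alone, 38 of Rxfp1 alone and 8 of neither. Cells with neither made up 3.21%, 2.14% and 0% of Sets 1, 2 and 3. Within the cluster the 2 genes were spread over cells with little relation to each other. At equal depth 64.6% of cells had both, beside 63.3% given by the product of the single shares, and Pearson's r of their log2 levels over 367 cells was 0.05, a description only. Of the members, Agtr1a and Adcyap1r1 had the largest r in cluster 1, 0.20, with 55.3% of cells having both beside a product of 51.5%; in cluster 2 the same pair had r = -0.10, with 64.4% of cells having both beside a product of 65.4%.

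In cluster 2, Sctr and Rxfp1 were carried by few cells. A count of either was found in 64 of 335 cells (19.1%), mostly 1 or 2 counts, and both were found in 10. Cells of the high-count part of cluster 3 had a count of either in 14.9%, at a higher median depth. Only 6 cluster 2 cells, from 3 plates and 2 sets, had 3 or more counts of Sctr or Rxfp1. Npy, the gene of neuropeptide Y and a leading transcript of cluster 1, had a median of 87.9 counts per 10000 in those 6 cells, 9.48 in the 271 cluster 2 cells with neither receptor and 190 in cluster 1. Gal, another cluster 1 transcript, had a median of 28.6 in the 6 cells, 6.07 in the 271 and 52.8 in cluster 1. Fst, also a cluster 1 transcript, had a median of 0 in the 6 cells, 0 in the 271 and 2.41 in cluster 1. None of the 6 cells had an Oprk1 count. The 6 cells were shallower, with a median of 24025.5 counts against 40584 in the 271, and detection of Oprk1 depends on depth. Whether such cells are mixed wells was not tested.

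**Figure D2:**
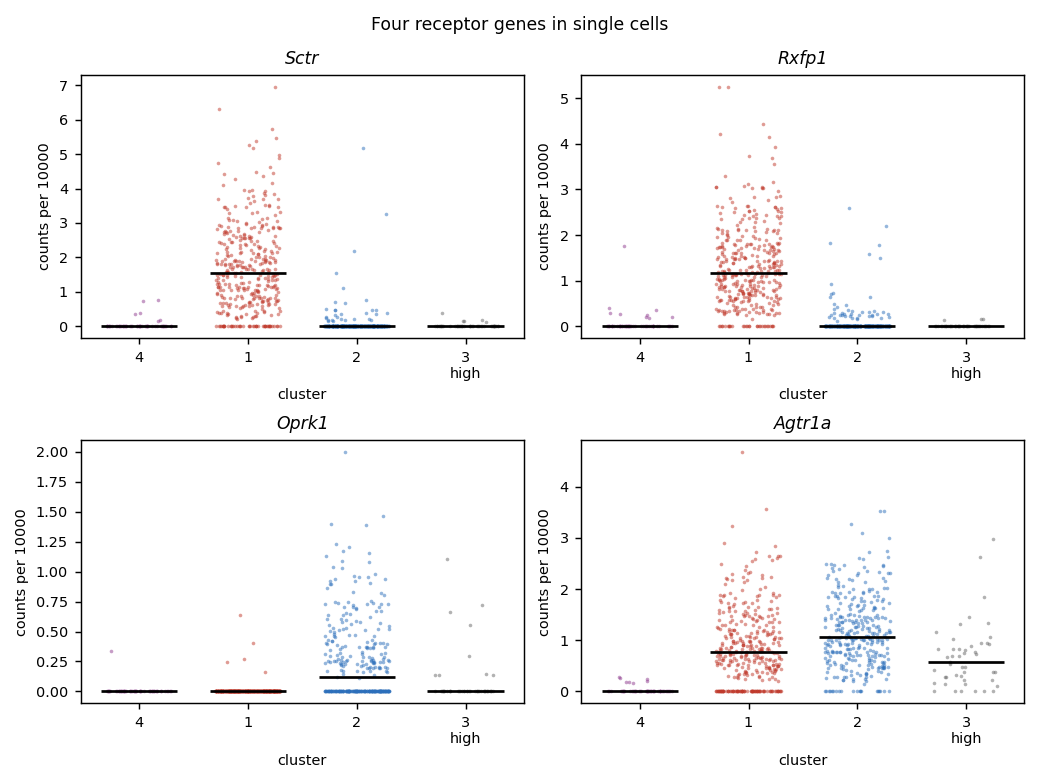
Levels of Sctr, Rxfp1, Oprk1 and Agtr1a in single cells (vertical axes, counts per 10000, each dot a cell) of cluster 4, cluster 1, cluster 2 and the high-count part of cluster 3; lines are medians over cells, unthinned. Nearly all cluster 1 cells lie above 0 for Sctr and Rxfp1, while Oprk1 has a count in 169 of 335 cluster 2 cells, a share that depends on depth.

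Adcyap1r1 was the member shared by all clusters. Adcyap1r1 (chromosome 6, 55451978 to 55501451, plus strand) had 0.752, 0.629 and 0.654 counts per 10000 in Sets 1, 2 and 3 of cluster 4, 1.25, 1.23 and 0.942 in cluster 1 and 1.41, 1.59 and 1.06 in cluster 2. Cluster 4 lay below clusters 1 and 2 in every set, 1.68-fold lower in the mean than cluster 1 and 1.99-fold lower than cluster 2, while clusters 1 and 2 overlapped. Even so, cluster 1 was lower than cluster 2 on 11 of 11 plates. At equal depth 64.2% (49.8 to 76.9) of cluster 4 cells, 79.0% (74.5 to 83.1) of cluster 1 cells and 84.5% (80.1 to 88.3) of cluster 2 cells had a count. It was also the member most often seen in the low-count part of cluster 3, where 12 of 54 cells had it. Its level there was 0.832, 0.990 and 0.506 from 13 counts in all. The summed endothelial markers were 9.33 to 33.7 in that part, the fibroblast markers 0.327 to 44.1, the mural markers 2.47 to 26.6 and the glial markers 4.15 to 24.9. The neuronal markers were 26.6 to 49.1 and the noradrenergic markers 18.0 to 68.5. Which cells these 13 counts came from was not tested. The high-count part had 1.21, 1.01 and 0.641.

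Oprk1 transcripts were found mainly in cluster 2. Oprk1 (chromosome 1, 5588466 to 5606131, plus strand) had 0.0279, 0 and 0 counts per 10000 in Sets 1, 2 and 3 of cluster 4, 0.00173, 0.00464 and 0.00867 in cluster 1 and 0.273, 0.281 and 0.184 in cluster 2. It thus rested on 1 count in cluster 4, 5 counts in cluster 1 and 389 counts in cluster 2, and cluster 2 lay above both in every set, 49.1-fold above cluster 1 in the mean. Without thinning, 169 of 335 cluster 2 cells had a count, which is 50.4% (45.0 to 55.9); 53 of them had 3 or more. At equal depth the share was 29.7% (24.8 to 35.0) in cluster 2 and 0.545% (0.0661 to 1.95) in cluster 1, and 0 of 53 cells in cluster 4, which allows a share of cells with a count of up to 5.66% at this depth (1 of 54 cells had a count before thinning). In the high-count part of cluster 3 Oprk1 had 0.146, 0.0445 and 0.0765, below every set of cluster 2 and above every set of clusters 4 and 1.

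Cluster 2 cells with and without an Oprk1 count are not read as separate groups, since at this level a cell can have 0 counts by sampling. The variance of thinned counts over their mean was 1.20 for Oprk1 and 1.22 for Agtr1a in the same cells. Such a ratio depends on the mean, which was 0.256 counts per 10000 for Oprk1 and 1.13 for Agtr1a. The ratios therefore do not compare the spread of these genes, and whether Oprk1 varies between cells beyond sampling was not tested. Detection of Oprk1 was set beside that of Sctr and Rxfp1 as values with no test. Oprk1 was detected in 19 of the 64 cells with a count of Sctr or Rxfp1 (29.7%) and in 150 of the 271 without (55.4%), at median depths of 38649.5 and 40584 counts. By set the shares were 22.7%, 36.0% and 29.4% of cells with Sctr or Rxfp1, and 60.0%, 56.3% and 46.4% of cells without, so the order was the same in 3 of 3 sets. At equal depth the shares were 19.4% of 31 cells with Sctr or Rxfp1 and 30.8% of 292 without. Npy was also below the other cells in the Oprk1 cells of each set: at equal depth it averaged 21.2, 3.19 and 16.3 counts per 10000 in cluster 2 cells with Oprk1 in Sets 1, 2 and 3, and 32.2, 18.5 and 30.7 in those without.

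Oprm1 was barely sampled. Oprm1 (chromosome 10, 6758506 to 7038198, plus strand) had 23 counts in 21 of all 878 cells: 0 in cluster 4, 10 in cluster 1, 4 in cluster 2, 8 in the high-count and 1 in the low-count part of cluster 3. For 54 cells of cluster 4, 0 cells with a count allows a share of such cells of up to 5.56% at this depth, which does not bound the share that express the gene. Its mean was 0.00938, 0.00401 and 0.0116 counts per 10000 in Sets 1, 2 and 3 of cluster 1 and 0.00767, 0.00145 and 0 in cluster 2, which overlap. At equal depth it was seen in 4.26% (0.520 to 14.5) of the high-count part of cluster 3, 1.09% (0.298 to 2.77) of cluster 1 and 0.310% (0.00784 to 1.71) of cluster 2. An exon of Oprm1 overlaps Ipcef1 and Gm10945 on the opposite strand, and the sources used here do not say whether counting used strand; without it, reads of these genes cannot be told apart.

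Npy1r was present in clusters 1 and 2 and near 0 in cluster 4. Npy1r (chromosome 8, 66697192 to 66706792, plus strand) had 0.0315, 0.0192 and 0 counts per 10000 in Sets 1, 2 and 3 of cluster 4, 0.159, 0.234 and 0.169 in cluster 1 and 0.117, 0.192 and 0.136 in cluster 2. Cluster 4 (4 counts in all) lay below clusters 1 and 2 in every set. The set means of clusters 1 and 2 overlapped, yet within each set cluster 1 was higher than cluster 2, by 0.0421, 0.0422 and 0.0329 counts per 10000 in Sets 1, 2 and 3, and it was higher on 8 of 11 plates. The mean was 11.1-fold lower in cluster 4 than in cluster 1 and 8.77-fold lower than in cluster 2. Detection at equal depth was 3.77% (0.460 to 13.0) in cluster 4, 25.1% (20.7 to 29.8) in cluster 1 and 19.5% (15.3 to 24.3) in cluster 2. The high-count part of cluster 3 had 0.0512, 0.0400 and 0.0299, below every set of clusters 1 and 2.

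Npy2r, the other neuropeptide Y receptor in the group, was rare and almost all in cluster 2. Npy2r (chromosome 3, 82538383 to 82548084, minus strand) had 26 counts in 23 cells, of which 25 counts in 22 cells were in cluster 2, 1 was in cluster 1 and none were in cluster 4 or cluster 3. Its mean was 0, 0.00210 and 0 counts per 10000 in Sets 1, 2 and 3 of cluster 1 and 0.00628, 0.0253 and 0.0326 in cluster 2, so the sets did not overlap. After thinning 1 cell of cluster 1 and 4 cells of cluster 2 had a count, and the separation of the sets was lost.

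Sstr2 ran the other way, highest in cluster 4. Sstr2 (chromosome 11, 113619342 to 113626028, plus strand) had 0.212, 0.395 and 0.519 counts per 10000 in Sets 1, 2 and 3 of cluster 4, 0.0217, 0.0568 and 0.0357 in cluster 1 and 0.0578, 0.0899 and 0.0669 in cluster 2. Cluster 4 lay above clusters 1 and 2 in every set, 9.86-fold and 5.25-fold higher in the mean, and on 7 of the 8 plates with at least 3 cells of each cluster. At equal depth 32.1% (19.9 to 46.3) of cluster 4 cells, 5.72% (3.58 to 8.61) of cluster 1 cells and 7.43% (4.82 to 10.9) of cluster 2 cells had a count. The small step between cluster 1 (53 counts) and cluster 2 (80 counts), a difference of -0.0335 counts per 10000 in the means, was -0.0298 at equal depth, where the set means overlapped. With summed counts it was -0.0147. A single shallow cell of cluster 2 in Set 2, with 5673 counts in all, stood at 5.29 counts per 10000 and weighs on the mean of that set. Its plate, plate 6, had a cluster 2 mean of 0.249, against 0.0387, 0.0710 and 0.00623 on plates 5, 7 and 8 of Set 2. The separation of the unthinned set means of clusters 1 and 2 rests on this cell. The high-count part of cluster 3 had 0.0337, 0.130 and 0.283, a range that overlapped cluster 4, and the low-count part had a count in 0 of 54 cells, at a depth too low to read. An exon of Sstr2 overlaps Slc39a11 on the opposite strand, with the same limit on its counts.

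**Figure D3:**
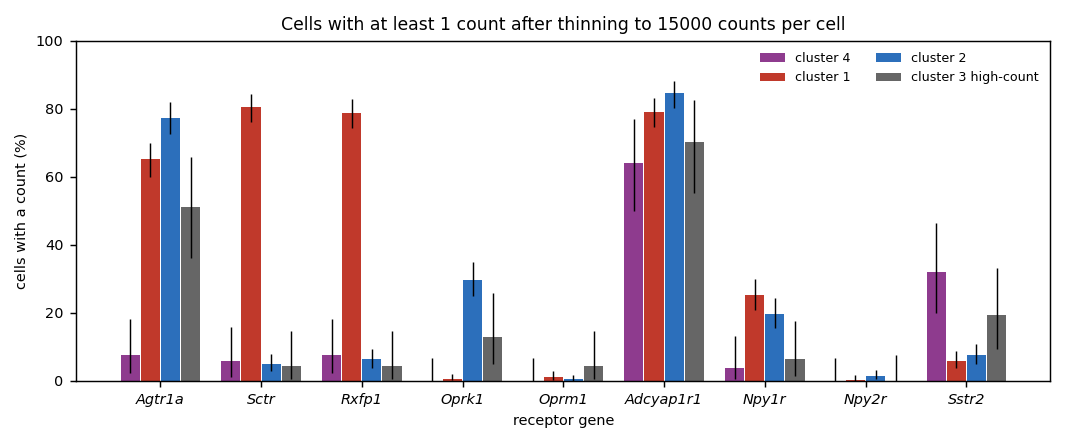
Share of cells with at least 1 count (vertical axis, percent) of each receptor gene after thinning to 15000 counts, in 53 cells of cluster 4, 367 of cluster 1, 323 of cluster 2 and 47 of the high-count part of cluster 3; lines are 95% Clopper-Pearson intervals. Sctr and Rxfp1 reach about 80% in cluster 1 alone, and Sstr2 is highest in cluster 4 at 32.1%.

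Within cluster 4, Sstr2 was found mainly in cells that also carried Sst, the gene of its own ligand somatostatin, given here as counts of cells with no test. Of 18 cells with an Sst count, 17 had Sstr2 (94.4%, 72.7 to 99.9), against 3 of 36 cells without Sst (8.33%, 1.75 to 22.5). By set these were 3 of 3, 9 of 10 and 5 of 5 cells with Sst, and 0 of 9, 1 of 14 and 2 of 13 without. The mean Sstr2 level was 1.13 counts per 10000 in Sst cells and 0.0282 in the others. Sst cells were the shallower ones, with a median of 30410.5 counts against 36614.5, and at equal depth Sstr2 was seen in 15 of 17 cells with Sst and 2 of 36 without. In cluster 1, 9 of 58 cells with an Sst count had Sstr2 (15.5%, 7.35 to 27.4) and 31 of 330 without (9.39%, 6.47 to 13.1). In cluster 2 these were 4 of 8 cells with Sst (50.0%, 15.7 to 84.3) and 41 of 327 without (12.5%, 9.15 to 16.6). In the high-count part of cluster 3 they were 2 of 2 and 19 of 45. The share before thinning was higher in Sst cells in each of these groups, with few such cells outside clusters 4 and 1. In these groups the Sst cells were the deeper ones, with medians of 30943.5 counts against 27797.5 in cluster 1 and 44863 against 40011 in cluster 2. In the high-count part of cluster 3 the medians were 87024.5 and 68061. No shares at equal depth are given for these groups.

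**Figure D4:**
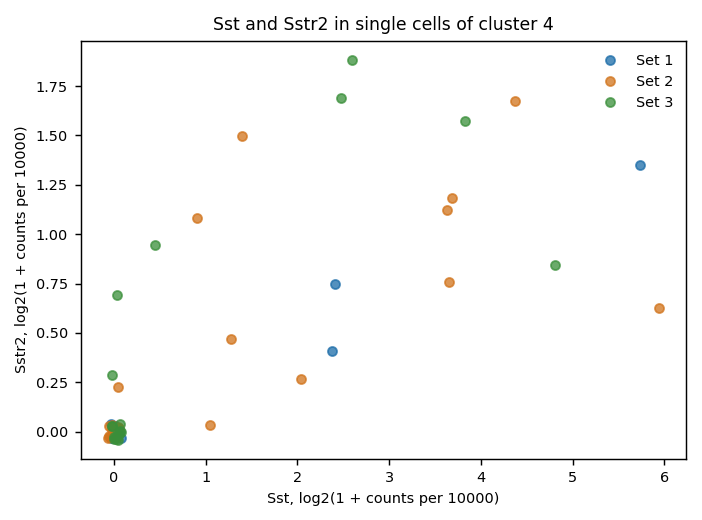
Sst (horizontal axis) and Sstr2 (vertical axis) in the 54 cells of cluster 4, both as log2(1 + counts per 10000), coloured by set; points are shifted slightly at random so that cells at 0 can be seen. Of the 18 cells with Sst, 17 lie above 0 for Sstr2, against 3 of the 36 cells at 0 for Sst.

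Set means that do not overlap were also counted for the 9 genes beside all genes. Of the members, 2 (Sctr, Rxfp1) were higher in cluster 1 than in cluster 2 without overlap, where 8.03% of 10454 genes with a mean of at least 0.05 counts per 10000 were. The number lower in cluster 1 than in cluster 2 was 4 (Agtr1a, Oprk1, Npy2r, Sstr2), beside 9.11% of genes, and at equal depth it was 2 (Agtr1a, Oprk1). In cluster 4, 1 member was higher than in cluster 1 (Sstr2), beside 10.4% of genes, and 6 were lower (Agtr1a, Sctr, Rxfp1, Oprm1, Adcyap1r1, Npy1r), beside 12.7%. Against cluster 2, 1 was higher in cluster 4 (Sstr2), beside 8.51% of genes, and 5 were lower (Agtr1a, Oprk1, Adcyap1r1, Npy1r, Npy2r), beside 12.7%. The members were chosen for such differences, so nothing is read from these counts. Oprm1 and Npy2r are counted although they failed the filter on the mean level, which the other 7 passed.

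Over the 743 thinned cells of clusters 4, 1 and 2, the genes most alike in pattern were found by Pearson's r of log2 levels among 11322 genes, a description in which all genes share the cells and their depth. Sctr was nearest to Gal (r = 0.66), Fst (0.64) and Npy (0.64), and Rxfp1 to Npy (0.59), Fst (0.58) and Pcp4 (0.57). Sstr2 was nearest to Sst (0.45), Cartpt (0.40) and Prima1 (0.33). Oprk1 was nearest to Slc18a1 (0.34), Ntng1 (0.32) and Fxyd2 (0.31). Agtr1a was nearest to the copper transporter Slc31a1 (0.32), Ddc (0.31), which makes dopamine, and Cyb561 (0.31), an electron carrier of catecholamine vesicles. Values for Adcyap1r1 were at most 0.25, with the noradrenaline transporter Slc6a2, and for Npy1r at most 0.16. Oprm1 and Npy2r were too sparse to rank.

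Between sets of mice, the receptors of cluster 1 differed while Agtr1a and Npy1r did not pass. In cluster 1, Sctr averaged 1.54 ± 0.0908 (SD over 4 plates), 1.56 ± 0.229 (4 plates) and 2.18 ± 0.130 (3 plates) counts per 10000 in Sets 1, 2 and 3. All 3 plates of Set 3 lay above all others (Set 3 minus Set 1 of 0.27 on the log2(1 + counts per 10000) scale, SE 0.08, adjusted p = 0.00755, limma F-test over the sets). With a pseudocount of 0.1 in place of 1 the limma adjusted p of Sctr was 0.113. Rxfp1 differed in another way, 1.10 ± 0.114, 1.59 ± 0.223 and 1.23 ± 0.0776, with all 4 plates of Set 2 above all others (Set 2 minus Set 1 of 0.30, SE 0.07, limma adjusted p = 0.00270). Adcyap1r1 was 1.25 ± 0.158, 1.23 ± 0.0474 and 0.940 ± 0.0578, lowest on all 3 plates of Set 3 (Set 3 minus Set 1 of -0.22, SE 0.07, limma adjusted p = 0.0176). The limma adjusted p of Adcyap1r1 was 0.183 after thinning and 0.119 without plate 11, and without plate 9 that of Agtr1a was 0.0355. Agtr1a (limma adjusted p = 0.0772) and Npy1r (0.273) did not pass otherwise. Thus 3 of 5 members tested passed, where 26.8% of 10356 genes did.

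In cluster 2 the sets differed for Adcyap1r1 alone among 7 members tested, where 31.5% of 10346 genes passed. Its plate means were 1.41 ± 0.0449, 1.59 ± 0.0749 and 1.05 ± 0.111 counts per 10000 in Sets 1, 2 and 3, and no plate of a set overlapped another set (Set 3 minus Set 1 of -0.24, SE 0.07, limma adjusted p = 0.000311). Adcyap1r1 was thus lowest in Set 3 in both clusters. The high-count part of cluster 3, with 1.21, 1.01 and 0.641, was also lowest in Set 3. Cluster 4, with 0.752, 0.629 and 0.654, did not show that order. For Oprk1 the plate means were 0.267 ± 0.0441, 0.274 ± 0.0814 and 0.186 ± 0.0527, and the limma adjusted p was 0.204. The limma adjusted p was 0.550 for Agtr1a, 0.501 for Sctr, 0.224 for Rxfp1, 0.128 for Npy1r and 0.990 for Sstr2. Without plate 8, Npy1r passed at an adjusted p of 0.0243. Median depth in Sets 1, 2 and 3 was 27240.5, 30846 and 27211 counts in cluster 1 and 39116, 46238 and 35748.5 in cluster 2, and its part in these differences was not tested beyond the thinned values of the closing section. Mice, dissection and library preparation of a set cannot be told apart, and the p-values measure the spread between plates of the same pools.

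**Figure D5:**
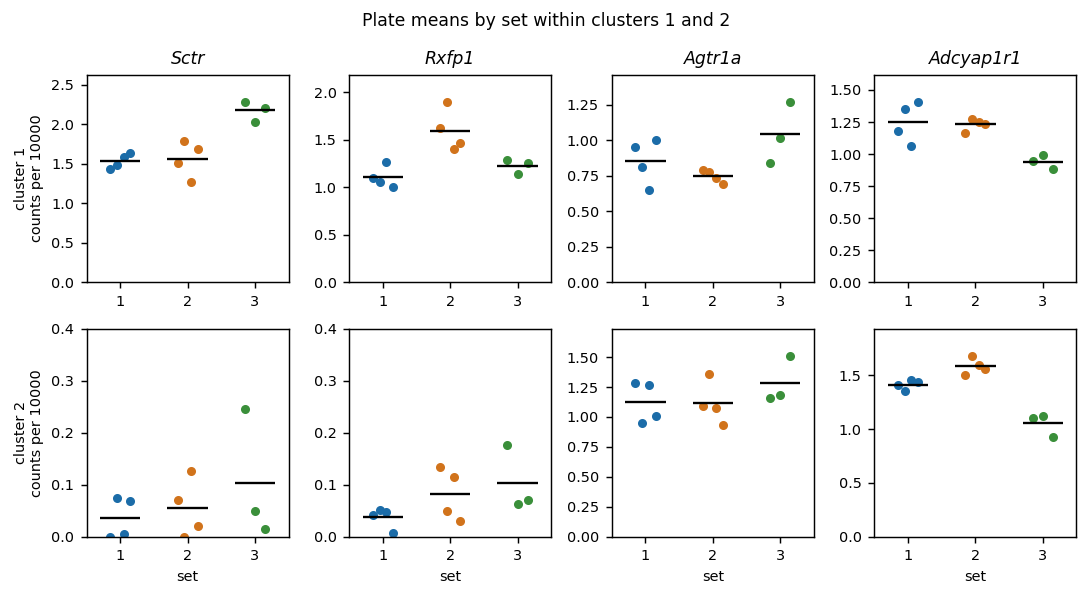
Plate means of Sctr, Rxfp1, Agtr1a and Adcyap1r1 (vertical axes from 0, counts per 10000) by set within cluster 1 (upper row) and cluster 2 (lower row); each point is a plate and each line the mean of a set. In cluster 1, Sctr is highest on the 3 plates of Set 3 and Rxfp1 on the 4 plates of Set 2, and Adcyap1r1 is lowest in Set 3 in both clusters.

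Of the peptides that bind these receptors, 10 of 18 listed ligand and enzyme genes were analysed here and 6 passed the filter, with 3 higher and 1 lower in cluster 4 than in cluster 1 without overlap of set means (10.4% and 12.7% of all genes), 3 higher and 2 lower in cluster 4 than in cluster 2 (8.51% and 12.7%), and 2 higher and 3 lower in cluster 1 than in cluster 2 (8.03% and 9.11%). Npy, the ligand gene of Npy1r and Npy2r, had 3.48 ± 1.10 counts per 10000 in cluster 4, 183 ± 14.7 in cluster 1 and 25.7 ± 10.3 in cluster 2. Sst had 4.31 ± 1.42 in cluster 4, 0.0724 ± 0.0222 in cluster 1 and 0.00516 ± 0.00473 in cluster 2. Adcyap1, which encodes PACAP, had 0.311, 0.454 and 0.597 in Sets 1, 2 and 3 of cluster 4, 0.00209, 0.00519 and 0 in cluster 1 and 0.0488, 0.0846 and 0.0810 in cluster 2. Its receptor gene Adcyap1r1 was lowest in cluster 4, where Adcyap1 was highest. Vip, whose peptide binds the PACAP receptor only weakly, is the cholinergic marker given above. Pdyn, which encodes the dynorphins that bind the kappa opioid receptor, had 0, 0.438 and 0.601 in Sets 1, 2 and 3 of cluster 4, against means of 0.00154 in cluster 1 and 0.00307 in cluster 2. Pomc, the source of beta-endorphin, had 0.147 in cluster 4, 0.118 in cluster 1 and 0.170 in cluster 2. Sct, which encodes the ligand of Sctr, was at 0 in cluster 4, 0.0282 in cluster 1, 0.0208 in cluster 2 and 0.0523 in the high-count part of cluster 3. The relaxin genes were not analysed here, so nothing is said of a source of the ligand of Rxfp1. Agt, the angiotensin precursor, was at 0 in clusters 4 and 2 and 0.00119 in cluster 1.

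Of 75 other listed peptide receptor genes, 29 were analysed and 9 passed the filter, with 0 higher and 4 lower in cluster 4 than in cluster 1 (10.4% and 12.7% of all genes), 2 higher and 4 lower in cluster 4 than in cluster 2 (8.51% and 12.7%), and 4 higher and 2 lower in cluster 1 than in cluster 2 (8.03% and 9.11%). The highest was Ramp1, a partner subunit of the calcitonin gene-related peptide receptor, at 1.57 ± 0.253 in cluster 4, 2.19 ± 0.171 in cluster 1 and 4.26 ± 0.551 in cluster 2. The orexin receptor Hcrtr1 had 0.300 ± 0.00850 in cluster 4, 1.77 ± 0.244 in cluster 1 and 1.24 ± 0.112 in cluster 2, lowest in cluster 4 as Agtr1a was. The cholecystokinin receptor Cckar had 0.0387 ± 0.0326 in cluster 4, 0.116 ± 0.0421 in cluster 1 and 0.712 ± 0.159 in cluster 2, highest where Oprk1 was. All 11 G protein alpha subunit genes were analysed and passed; 3 were higher and 1 lower in cluster 4 than in cluster 1, 3 higher and 1 lower in cluster 4 than in cluster 2, and 0 higher and 1 lower in cluster 1 than in cluster 2. Of all genes the shares are those just given, and the lower counts are near them. Gnas, which encodes the subunit that couples Sctr, Rxfp1 and Adcyap1r1 to adenylate cyclase, had 7.96 ± 0.448 in cluster 4, 1.03 ± 0.0471 in cluster 1 and 3.54 ± 0.907 in cluster 2. The Gnas count was thus lowest in cluster 1, where Sctr and Rxfp1 were highest. Counts of 3' ends do not tell apart transcripts of a gene that share their 3' end, so the level of the subunit itself was not measured. Gnao1 and Gnai2, subunits used by the opioid, neuropeptide Y and somatostatin receptors, overlapped between the clusters. Gnao1 had 2.32 in cluster 4, 2.92 in cluster 1 and 3.15 in cluster 2, and Gnai2 had 2.31 in cluster 4, 2.52 in cluster 1 and 2.33 in cluster 2.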

How the data were processed

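Cells were sorted 1 to a well and lysed there, and their cDNA was combined for amplification and 3'-end libraries, per the labels' protocols. The submitters' processing notes name GRCm38, STAR 2.5.3a, featureCounts 1.5.3, SAMtools 1.4.1 and Seurat. Strand, molecular identifiers and doublet removal are not given in the sources used here, and no doublet caller was run. The authors deposited each cell's values as a natural log, ln(1 + counts per 10000); undoing it gave whole counts, to within 0.001, for 100% of the values above 0. The authors' deposited cluster numbers are labels in no unit. The deposited sort record was not used. All 96 well barcodes recur on more than 1 plate, and 0 cell names are shared. Plates held 2050165 to 3373157 counts.

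The members and gene lists were chosen with earlier results of these data known. Named genes are the members, their ligands, the 3 highest genes of each list and the 3 genes most correlated with each member among those with a count in at least 5% of thinned cells. Cluster 3 was split at the widest gap in its cell totals. A count test had been planned only for a table of raw counts; since the deposited unit is a log, plate means of log2(1 + counts per 10000) were tested with limma 3.58.1 (R 4.3.3; trend, robust; two-sided F-test over sets; Benjamini-Hochberg adjustment over all genes with a mean of at least 0.05; threshold 0.05), checked on simulated data. Such log2 differences understate changes of low genes. The rest was done in Python 3.11.15 (scipy 1.17.1, numpy 2.4.6, matplotlib 3.10.9, pandas 2.3.3). The floor for 0 cells is 3 counts of the total. Sequences and gene starts of the promoters are from RefSeq, which matched 5 of 9 members. Alternatives were summed counts, thinning, leaving out 78 glia-rich or 44 high-count neurons, each set or plate, another pseudocount and no filter.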

Additional observations from a re-analysis of the deposited data

Results flagged for a closer look

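In groups of 4 plates of a set, 6 of 35 plate groups held a plate standing apart from the other plates by Dixon's test. Chance flags about 1 in 20 groups only where values are normally spread. A plate that alone lies above 0 is flagged whatever its value, so the number of flags is not compared with chance. For 5 of the 6, the plate was the only one of its set above 0: Oprk1 in cluster 1 on plate 4 of Set 1 (0.00642 counts per 10000), Oprm1 in cluster 1 on plate 7 of Set 2 (0.0170), Npy2r in cluster 1 on plate 8 of Set 2 (0.00794), Oprm1 in cluster 2 on plate 5 of Set 2 (0.00578) and Npy2r in cluster 2 on plate 3 of Set 1 (0.0239). The other was Npy1r in cluster 1 on plate 5 of Set 2, at 0.326, where the other plates of Set 2 had 0.185 to 0.209.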

How the results depend on the processing

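Of 189 recomputed member differences between clusters, 183 moved by less than 1 SD of the sets and 6 moved further (Npy1r or Sstr2 between clusters 1 and 2). The sign changed in 0 of those where sets did not overlap, and in 5 where they did (Oprk1 between clusters 4 and 1, Sctr and Rxfp1 between clusters 4 and 2). Thinning to 15000 counts left 2 members lower in cluster 1 than in cluster 2 (Agtr1a and Oprk1) in place of 4. Leaving out each set gave 2 to 4 members higher and 4 to 5 lower in cluster 1 than in cluster 2, 1 to 1 higher and 6 to 7 lower in cluster 4 than in cluster 1, and 1 to 1 higher and 5 to 7 lower in cluster 4 than in cluster 2; without Set 2, Oprm1 and Npy1r were added to those higher in cluster 1. Between sets, thinning lowered the genes called to 1824 in place of 2774 in cluster 1 and to 1918 in place of 3260 in cluster 2, where testing all genes without the filter gave 2084; the cause was not tested. Leaving out each plate gave 2164 to 2978 genes and 2 to 4 members called in cluster 1, and 2579 to 3614 genes and 1 to 2 members in cluster 2. In cluster 1, limma's adjusted p for Sctr was 0.113 with a pseudocount of 0.1 (0.00408 to 0.113 over all alternatives) and for Adcyap1r1 0.183 after thinning (0.0135 to 0.183), while that of Rxfp1 stayed at 0.00166 to 0.0315, as did Adcyap1r1 in cluster 2 at 0.000128 to 0.00821. Shares of cells with a count fall with depth, in 24 of 36 values by more than their counting interval. Oprm1 and Npy2r, with 23 and 26 counts, allow no finer statement. Plate numbers run on through the sets, so the tests between sets have no paired fit; clusters share sets and plates, and their differences are given within both.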
